A study of Mus musculus with 6 samples.

Results

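The laminin, nidogen, perlecan and integrin genes were followed across the cell types of the fetal mouse gonad. They were taken by name, as every symbol made of Lama, Lamb or Lamc and a digit, of Itga and digits or letters, or of Itgb and a digit, together with *Nid1*, *Nid2* and *Hspg2*, the gene of perlecan. The rule used no measured value and found 40 of the 26251 genes listed, namely 11 laminin chains, 3 genes of nidogens and perlecan, 18 integrin alpha chains and 8 integrin beta chains. Of these, 39 were listed in all 6 libraries and *Itgb6* in 5.

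Laminins are heterotrimers of an alpha, a beta and a gamma chain that polymerise into the sheet at the core of every basement membrane. Nidogens and perlecan tie this sheet to the network of type IV collagen. Integrins are cell surface heterodimers of an alpha and a beta chain. Those that hold the products of *Itga3*, *Itga6* or *Itga7* bind laminins, those with *Itga1* or *Itga2* bind collagens, and those with *Itga4*, *Itga5*, *Itga8*, *Itga9* or *Itgav* bind fibronectin and related ligands. In the fetal testis, Sertoli cells lie on a basement membrane that wraps the testis cords and separates them from the interstitium.

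The study compared gonads at E15.5 of 3 groups, with 2 libraries per group, made with the 10x Genomics protocol. Control XY and control XX gonads were wild type (*Amh*+/+; *Inhbb*+/+), and dKO XY gonads lacked *Amh*, the gene of anti-Müllerian hormone, and *Inhbb*, whose product forms activin B (*Amh*-/-; *Inhbb*-/-). The mutant alleles came from crosses of single heterozygous lines. Left and right gonads of an animal were processed together, and the cells were stored frozen before use.

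After the filters of the study, 39350 of 68064 barcodes were kept, with 4781 to 8569 cells and 118475468 to 221675316 UMIs (unique molecular identifiers, each counted as 1 captured transcript) per library. Barcodes with at least 25% mitochondrial UMIs, which the filters left out, made up 24.4% and 28.3% of the dKO XY libraries, 4.496% and 7.65% of the control XY libraries and 9.35% and 2.22% of the control XX libraries. Their part in the results was not tested. Pairs of libraries shared 4 to 25 barcodes. In supporting cells, *Amh* was at 2043 and 1910 UMIs per 1000000 (CPM) in control XY, against 18.0 and 15.7 CPM in dKO XY, and *Inhbb* was at 162 and 185 CPM against 41.9 and 51.1 CPM.

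Cells were grouped by clustering in which the genes studied here took no part. The supporting cells (7198 cells, the Sertoli and granulosa lineage, which wraps the germ cells), interstitial cells (23479), Leydig cells (3705), germ cells (1201), pericytes (1233), endothelial (958), epithelial (877) and immune cells (699) were each named from markers. For each gene, the UMIs of all cells of 1 type and 1 library were added up and are given as CPM of all UMIs of that sum, for sums of at least 10 cells. Values of different genes are set side by side but are not ranked, since the share of a transcript that is captured differs between genes.

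Of the 40 genes, 32 reached a median of at least 5 CPM over the libraries in 1 or more of the 8 cell types. The highest median was found in pericytes for 8 genes, in endothelial cells for 7, in interstitial cells for 5, in immune cells for 4, in supporting cells for 3, in Leydig and in epithelial cells for 2 each and in germ cells for 1. The other 8 had medians under 5 CPM in all of them, *Itgad*, *Itgae*, *Itgax* and *Lamb3* among them. These orders describe the clusters and were not tested, and Leydig cells came from XY gonads alone.

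**Figure D1:**
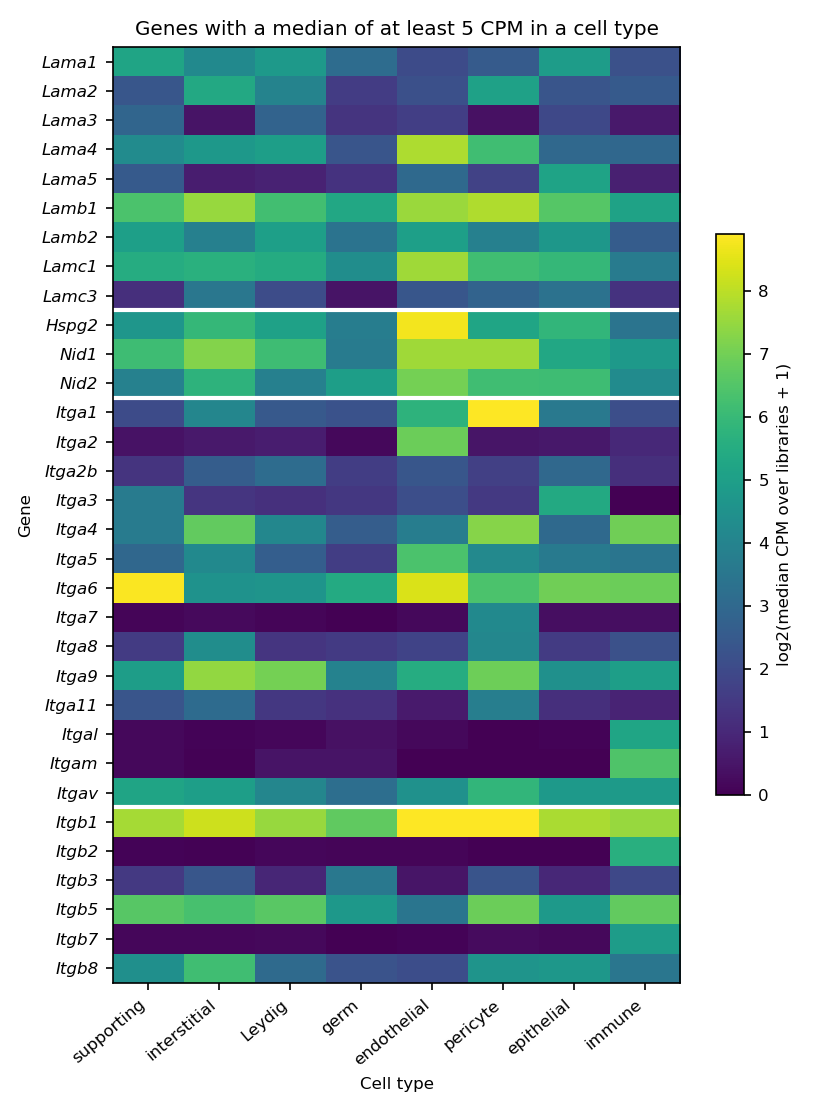
Heatmap of the 32 genes with a median of at least 5 CPM in a cell type (rows, grouped as laminin chains, nidogens and perlecan, integrin alpha chains and integrin beta chains) in 8 cell types (columns). The colour is log2(median CPM over libraries + 1). *Itga6* stands out in supporting and endothelial cells, *Itga1* in pericytes, *Hspg2* in endothelial cells, and *Itgal*, *Itgam*, *Itgb2* and *Itgb7* in immune cells.

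Levels of the laminin chains differed between cell types. *Lama1*, whose product is an early embryonic alpha chain, had a median of 35.4 CPM in supporting cells (24.7 to 50.4), of 29.5 CPM in epithelial and 27.1 CPM in Leydig cells, and of 3.13 CPM in endothelial cells and 4.81 CPM in pericytes. *Lama4*, an alpha chain of vessel walls, had a median of 221 CPM in endothelial cells (177 to 238) and 71.8 CPM in pericytes. *Lama2*, best known from muscle, was highest in interstitial cells (median 40.7 CPM) and pericytes (32.8 CPM). *Lama5* was highest in the epithelial cells of the gonad surface, at 26.8 CPM in the lowest and 72.0 CPM in the highest library, above every library of the other types, which reached 10.9 CPM. The partner chains *Lamb1* and *Lamc1* were found in all 8 types, with medians from 33.6 to 226 CPM and from 11.9 to 197 CPM. *Hspg2* in endothelial cells (342 to 572 CPM) lay above all libraries of the other types, of which the highest was at 80.1 CPM.

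Among the integrin chains, *Itgb1*, the partner of most alpha chains, was found in all 8 types, with medians from 105 CPM in germ cells to 477 CPM in pericytes. *Itga6* was at 344 to 684 CPM in supporting cells and at 265 to 388 CPM in endothelial cells. *Itga1* was at 353 to 614 CPM in pericytes, and no library of another type exceeded 62.2 CPM. *Itga2* was at 88.9 to 156 CPM in endothelial cells while the highest median among the other 7 types was 1.02 CPM. *Itgam*, *Itgb2*, *Itgal* and *Itgb7*, chains of leukocyte integrins, had medians of 86.3, 48.3, 36.4 and 29.3 CPM in immune cells. The first 3 of these did not exceed 2.02 CPM in any library of another type.

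The main comparison asked how these genes differ between supporting cells of dKO XY and control XY gonads. *Lama4* and *Lamc1* rose by 1.00 and 0.80 on the log2 scale in dKO XY cells, while *Lama2*, *Lama3* and *Lamb1* fell, so the laminin chains changed in both directions. *Itgb5* rose, *Itga4* fell, and *Nid1*, *Nid2*, *Hspg2*, *Itga6* and *Itgb1* did not pass the test. Of 33 genes tested, 4 were higher and 4 were lower (edgeR quasi-likelihood test, Benjamini-Hochberg adjustment over all genes, adjusted p under 0.05). Over all 15928 genes tested, 9.86% were higher and 6.81% were lower. The laminin chains gave 3 calls in each direction among 11 tested, with a median log2 fold change of 0.21 beside 0.02 over all genes. The 14 integrin alpha chains tested gave 1 lower call and the 5 beta chains 1 higher call.

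*Lama4* was at 17.2 and 19.9 CPM in control XY, at 35.1 and 38.9 CPM in dKO XY and at 4.64 and 4.37 CPM in control XX supporting cells. The dKO XY libraries were thus above both control XY libraries and further from control XX than these were. Its log2 fold change between dKO XY and control XY was 1.00 ± 0.14 (SE), with an adjusted p of 0.0012 (edgeR, Benjamini-Hochberg).

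*Lamc1*, the gamma chain of most laminins, was at 22.9 and 29.6 CPM in control XY, at 40.5 and 51.1 CPM in dKO XY and at 58.5 and 48.1 CPM in control XX. Here the dKO XY libraries overlapped with those of control XX. The log2 fold change was 0.80 ± 0.18 (SE), with an adjusted p of 0.013 (edgeR, Benjamini-Hochberg). The 9 granulosa markers moved the same way, at 912 and 880 CPM in control XY, 2334 and 2829 CPM in dKO XY and 4689 and 4270 CPM in control XX supporting cells. Their part in the rise of *Lamc1* was not tested.

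*Lamb1*, the most common partner beta chain, went the other way, from 110 and 134 CPM in control XY to 74.2 and 89.8 CPM in dKO XY, beside 71.6 and 65.0 CPM in control XX. It fell by 0.57 ± 0.15 (SE) on the log2 scale, with an adjusted p of 0.027 (edgeR, Benjamini-Hochberg). *Lama3*, a chain of epithelial laminins, was at 9.08 and 13.6 CPM in control XY, at 5.51 and 4.35 CPM in dKO XY and at 7.004 and 5.87 CPM in control XX. All dKO XY and XX libraries were below both control XY libraries, and the log2 fold change between dKO XY and control XY was -1.22 ± 0.23 (SE), with an adjusted p of 0.0060 (edgeR, Benjamini-Hochberg).

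*Lama2* was at 11.5 and 12.7 CPM in control XY, at 4.92 and 3.47 CPM in dKO XY and at 2.84 and 2.84 CPM in control XX. It fell by 1.53 ± 0.22 (SE) on the log2 scale, with an adjusted p of 0.0011 (edgeR, Benjamini-Hochberg). Markers of interstitial cells moved with it. Their part in the fall was not tested. Their summed level over 8 markers was 646 and 699 CPM in control XY, at 394 and 345 CPM in dKO XY and at 152 and 235 CPM in control XX supporting cells, and none of the 8 was at 0. The supporting cells that held *Tcf21*, an interstitial marker, or *Sycp3*, a germ cell marker, at a normalised level of at least 1 made up 22.0% and 18.4% of control XY, 8.74% and 6.84% of dKO XY and 8.82% and 22.9% of control XX supporting cells. These were left out of the Sertoli-like cells, in which *Lama2* was at 2.32 and 2.40 CPM in control XY, against 2.03 and 2.32 CPM in dKO XY, and did not pass the test.

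Both *Lamb3* and *Itgb5* were called higher. *Lamb3* rested on 1 UMI in control XY and 33 UMIs in dKO XY, a ratio of pooled levels of 10.8 with a 95% interval of 1.81 to 440 that covers counting error only. *Itgb5*, which pairs with *Itgav*, was at 80.5 and 101 CPM in control XY, at 122 and 132 CPM in dKO XY and at 89.3 and 82.5 CPM in control XX. Its log2 fold change was 0.49 ± 0.14 (SE), with an adjusted p of 0.038 (edgeR, Benjamini-Hochberg).

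*Itga4*, a receptor chain for VCAM and fibronectin, was at 21.5 and 21.01 CPM in control XY, at 13.8 and 10.1 CPM in dKO XY and at 0.39 and 0.57 CPM in control XX supporting cells. It fell by 0.82 ± 0.19 (SE) on the log2 scale, with an adjusted p of 0.015 (edgeR, Benjamini-Hochberg). Like *Lama2*, it moved with the interstitial markers given above, and it was high in interstitial cells themselves. Their part in its fall in the sum of all supporting cells was not tested.

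The genes that did not pass the test included both nidogens and perlecan. *Nid1* was at 73.6 and 93.6 CPM in control XY, against 64.7 and 74.8 CPM in dKO XY, *Nid2* at 16.6 and 16.8 CPM against 11.2 and 17.0 CPM, and *Hspg2* at 23.1 and 26.5 CPM against 18.9 and 23.9 CPM, with overlapping groups for all 3. *Itgb1* was at 199 and 200 CPM against 216 and 203 CPM. *Itga6*, the laminin receptor chain of these cells, was at 344 and 468 CPM in control XY, against 544 and 684 CPM in dKO XY without overlap, with a log2 fold change of 0.60 ± 0.19 (SE) and an adjusted p of 0.058 (edgeR, Benjamini-Hochberg). *Itga6* was called with DESeq2 (adjusted p of 0.023, Benjamini-Hochberg), without a filter on low counts, with only the compared groups, and without dKO XY replicate 1 or either control XX replicate. *Lama1* was at 30.8 and 39.97 CPM against 24.7 and 28.3 CPM (log2 fold change -0.42, adjusted p of 0.11 by edgeR with Benjamini-Hochberg adjustment), and *Lama5* at 2.58 and 3.21 CPM against 4.22 and 5.40 CPM (log2 fold change 0.71, adjusted p of 0.082 by edgeR with Benjamini-Hochberg adjustment).

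**Figure D2:**
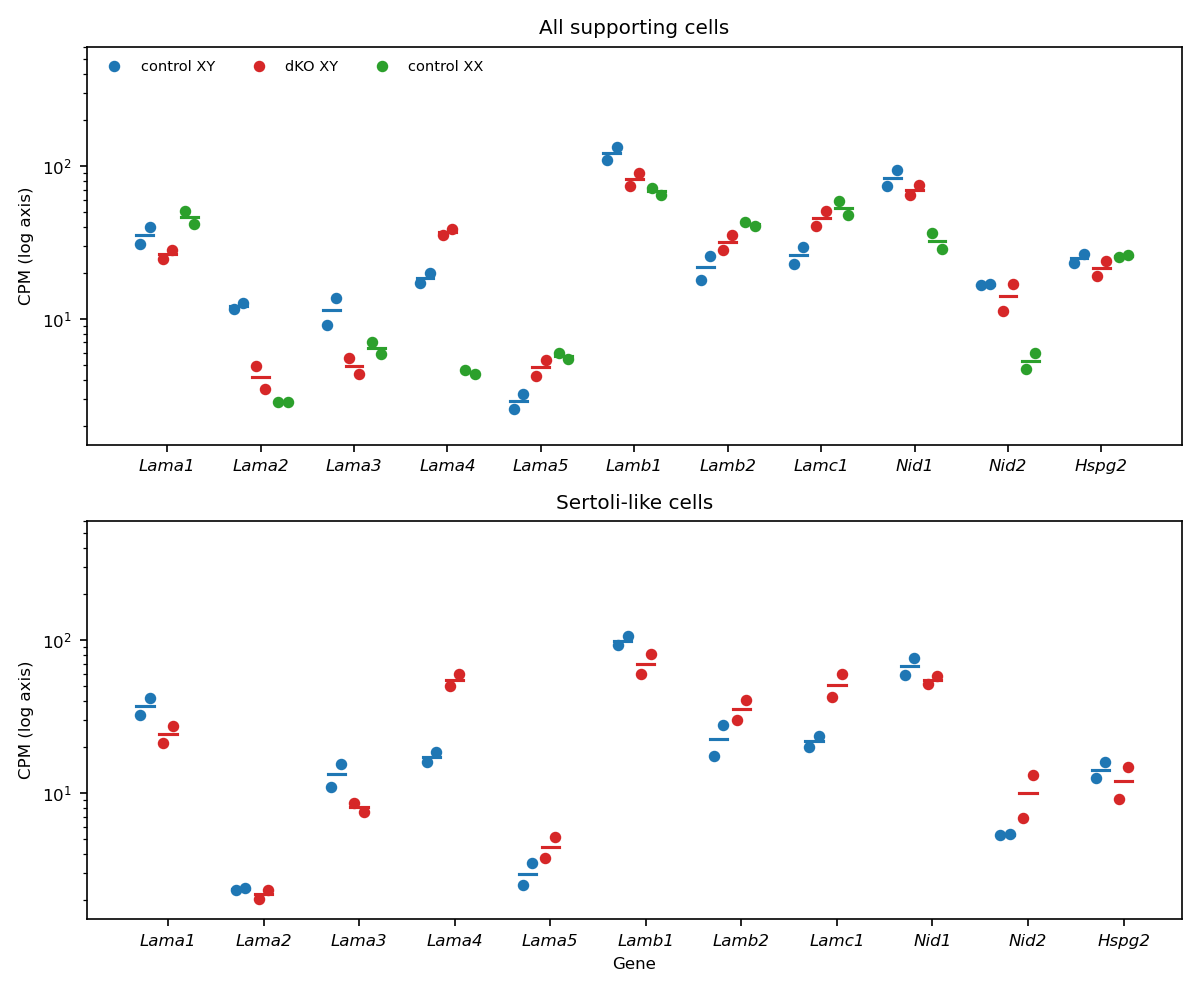
Levels of laminin, nidogen and perlecan genes in CPM (log axis) in all supporting cells (top) and in Sertoli-like cells (bottom), with 1 point per library and a bar at the group mean. In both panels the dKO XY points of *Lama4* and *Lamc1* lie above the control XY points, and *Lama2* differs between these groups in the top panel but not in the bottom panel.

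Leaving out 1 library at a time, which leaves an arm with 1 library that is assumed to vary like the others, *Lama4* and *Lama2* were called in all 6 fits. *Itga4* was lost without dKO XY replicate 2 or either control XY replicate (highest adjusted p of 0.084 by edgeR with Benjamini-Hochberg adjustment), *Itgb5* without either dKO XY replicate or control XY replicate 1 (0.25), *Lamb1* without dKO XY replicate 1 or control XY replicate 2 (0.22), *Lamc1* without dKO XY replicate 2 or control XY replicate 1 (0.0996), *Lama3* without control XY replicate 2 (0.094) and *Lamb3* without dKO XY replicate 1 or either control XY replicate. The number called was 7 and 5 without dKO XY replicates 1 and 2, and 4 and 5 without control XY replicates 1 and 2. *Lamb3* was also lost with DESeq2 and with only the compared groups, and *Itga4* without likely doublets (adjusted p of 0.067 by edgeR with Benjamini-Hochberg adjustment).

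The supporting cells were a mix that differed between the groups. In the clustering of all cells, control XY cells lay in a cluster led by *Cst9*, *Col9a3* and *Tesc*, control XX cells in another led by *Fst*, *Irx3* and *Calb1*, and dKO XY cells mostly in the first of these and in a cluster led by *Myl1*, *Cck* and *Pnmt*. On clustering them again, 73.4% and 77.1% of the control XY cells and 52.9% and 44.0% of the dKO XY cells were Sertoli-like. These lay in 2 subclusters, 1 with the germ cell genes *Dppa5a* and *Dppa3* in the lead and 6 of 7 germ cell markers at 1.5 times or more their level in the other supporting cells, and 1 led by genes of the cell cycle. Of the control XX cells, 90.6% and 76.5% lay in 2 other subclusters, 1 led by *Cela1*, *Irx3* and *Thbs2* and 1 by *Lmcd1*, *Pax8* and *Plac8*, in which 4 of 7 erythroid and 3 of 9 granulosa markers were raised by the same measure. These 2 also held 5.39% and 2.84% of the dKO XY cells. A further subcluster, which passed as neither Sertoli-like nor granulosa-like, held 32.9% and 46.3% of the dKO XY cells and 4.63% and 4.55% of the control XY cells. Its markers were set against the other supporting cells, of which 3717 were granulosa-like and 1693 Sertoli-like. The subcluster was led by *Tnnt2*, *Spon1* and *Smoc2*, with the Leydig marker *Cyp11a1* among its leading genes, and 7 of 8 interstitial and 5 of 6 Leydig markers were raised likewise. In its dKO XY cells the granulosa markers summed to 3502 and 3954 CPM and the Sertoli markers to 1055 and 873 CPM, beside 424 and 416 CPM for interstitial and 319 and 383 CPM for Leydig markers. In the clustering of all cells, the cluster led by *Myl1*, which held 426 and 438 dKO XY cells, had passed as granulosa by the same lists. In the dKO XY cells of the subcluster led by *Tnnt2*, *Lama4* was at 14.0 and 18.1 CPM, against 49.9 and 60.2 CPM in the Sertoli-like cells of the same libraries. *Lama3* was at 1.06 and 1.02 CPM against 8.62 and 7.55 CPM, and *Lamc1* at 38.5 and 41.9 CPM against 42.3 and 60.1 CPM.

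The promoters of genes called in supporting cells are shown for 4 that RefSeq (GRCm38.p6) lists, to give the sequence around the start of genes that moved in opposite directions. Each run holds 250 bases before and 50 bases after a transcription start, written 5′ to 3′ on the strand of the gene. Capitals mark every match, on either strand, of the 4 motifs searched. These were CAGAC, a core of SMAD sites, AACAAT, a core of SOX sites, TAAACA, a core of FOX sites, and AGATAA, which contains the letters that name the GATA factors. Only the first of them was found in the 4 windows printed. *Lamb3*, also called higher but resting on few UMIs, has 2 windows listed that are not printed, each with 2 CAGAC matches, and 1 of them holds a TAAACA match.
*Lama2* (lower; chr10:27616893-27617192, minus strand): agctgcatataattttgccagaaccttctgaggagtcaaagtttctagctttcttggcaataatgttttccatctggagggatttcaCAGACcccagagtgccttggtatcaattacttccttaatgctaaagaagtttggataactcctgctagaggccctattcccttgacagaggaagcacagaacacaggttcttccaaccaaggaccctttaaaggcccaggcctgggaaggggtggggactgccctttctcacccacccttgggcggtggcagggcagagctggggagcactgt
*Lamb1* (lower; chr12:31265043-31265342, plus strand): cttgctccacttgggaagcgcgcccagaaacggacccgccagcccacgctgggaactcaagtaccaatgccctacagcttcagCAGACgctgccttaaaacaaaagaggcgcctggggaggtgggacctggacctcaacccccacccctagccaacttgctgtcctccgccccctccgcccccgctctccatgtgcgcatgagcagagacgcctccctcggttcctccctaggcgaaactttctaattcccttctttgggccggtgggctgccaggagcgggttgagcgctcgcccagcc
*Itga4* (lower; chr2:79255176-79255475, plus strand): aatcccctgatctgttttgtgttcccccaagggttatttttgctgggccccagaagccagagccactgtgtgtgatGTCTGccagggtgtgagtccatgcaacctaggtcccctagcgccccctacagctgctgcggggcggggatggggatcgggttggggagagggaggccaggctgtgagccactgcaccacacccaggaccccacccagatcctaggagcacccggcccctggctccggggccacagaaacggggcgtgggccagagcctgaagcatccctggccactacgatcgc
*Itgb5* (higher; chr16:33829415-33829714, plus strand): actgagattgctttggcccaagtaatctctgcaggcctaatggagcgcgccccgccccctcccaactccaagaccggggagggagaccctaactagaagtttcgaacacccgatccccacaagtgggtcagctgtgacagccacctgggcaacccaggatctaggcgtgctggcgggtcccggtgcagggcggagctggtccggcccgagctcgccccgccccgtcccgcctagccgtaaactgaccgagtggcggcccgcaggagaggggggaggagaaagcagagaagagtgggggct
CAGAC was thus found in the printed windows of *Lama2*, *Lamb1* and *Itga4*, which fell, and not in that of *Itgb5*, which rose. The windows of *Lamb3* that are not printed also held it, but the call of *Lamb3* as higher rested on few UMIs. CAGAC was also found in 49.6% of the 32851 promoters of the same length, counted per window. Of the 25 genes studied here that had a promoter listed, 17 held it in 1 or more of their windows, so the 2 shares differ in unit. AACAAT was found in 10.7%, TAAACA in 13.4% and AGATAA in 11.2% of all promoters. GENCODE places *Lama2* at chr10:26980036-27619758, *Lamb1* at chr12:31265234-31329644, *Lama4* at chr10:38965515-39110188 and *Lamc1* at chr1:153218922-153332786 (GRCm38), all 4 protein-coding genes.

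Within Sertoli-like cells *Lama4* and *Lamc1* were again called higher, and *Lamb3*, at 0 to 5 UMIs per library, was too low to test. *Lama4* rose from 15.9 and 18.5 CPM in control XY to 49.9 and 60.2 CPM in dKO XY, and *Lamc1* from 19.9 and 23.7 CPM to 42.3 and 60.1 CPM. *Lama1*, *Lama3* and *Lamb1* fell, and the integrin chains *Itga4* and *Itgb3* rose. Of 26 genes tested, 4 were higher and 3 were lower, where 8.51% and 5.86% of all 13728 genes tested were called higher and lower (edgeR, Benjamini-Hochberg). The cells were 190 and 407 in control XY and 678 and 418 in dKO XY, and control XX held none.

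The log2 fold change of *Lama4* in Sertoli-like cells was 1.62 ± 0.16 (SE), with an adjusted p of 8.6e-05, and that of *Lamc1* was 1.17 ± 0.19 (SE), with an adjusted p of 0.0022 (edgeR, Benjamini-Hochberg). Both were called in all 4 fits that left out 1 library. *Lama1* was at 32.5 and 42.2 CPM in control XY, against 21.2 and 27.4 CPM in dKO XY, a fall by 0.68 ± 0.18 (SE) on the log2 scale. *Lama3* was at 10.95 and 15.6 CPM against 8.62 and 7.55 CPM, and *Lamb1* at 93.4 and 106 CPM against 60.2 and 80.7 CPM. The adjusted p was 0.028 for *Lama1*, 0.033 for *Lama3* and 0.0495 for *Lamb1* (edgeR, Benjamini-Hochberg).

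*Itga4* was at 5.47 and 3.47 CPM in control XY Sertoli-like cells and at 10.5 and 8.42 CPM in dKO XY Sertoli-like cells, without overlap. Its log2 fold change was 1.10 ± 0.27 (SE), with an adjusted p of 0.021 (edgeR, Benjamini-Hochberg), which is opposite in sign to that over all supporting cells. The interstitial markers summed to 151 and 209 CPM in control XY and to 185 and 168 CPM in dKO XY Sertoli-like cells, and overlapped between the groups. *Itgb3*, a partner of *Itgav*, was low, at 0.83 and 0.83 CPM against 1.79 and 3.83 CPM. Granulosa markers were at 964 and 972 CPM in control XY and 1724 and 1866 CPM in dKO XY, and germ cell markers at 113 and 33.2 CPM against 255 and 364 CPM. The Sertoli markers themselves were at 6854 and 6281 CPM against 8845 and 7040 CPM, and supporting lineage markers at 955 and 1030 CPM against 1411 and 1355 CPM. Erythroid markers were at 44.1 and 452 CPM against 475 and 650 CPM. Pericyte markers went the other way, at 50.6 and 53.1 CPM against 32.1 and 36.6 CPM. The part of any of these lists in the values of Sertoli-like cells was not tested. The nidogens, *Hspg2*, *Itga6* and *Itgb1* did not pass the test, with *Nid2* at 5.31 and 5.37 CPM against 6.83 and 13.2 CPM.

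Without control XY replicate 2, 4 genes were called in Sertoli-like cells, and *Itga4*, *Itgb3*, *Lama1*, *Lama3* and *Lamb1* lost their call, with adjusted p of 0.225 for *Itga4*, 0.249 for *Lama1*, 0.349 for *Lama3* and 0.219 for *Lamb1* (edgeR, Benjamini-Hochberg). Without dKO XY replicate 1, *Lama1* and *Lamb1* lost it, with adjusted p of 0.105 and 0.366 (edgeR, Benjamini-Hochberg). DESeq2 called neither *Lama3* nor *Itgb3*, and *Lamb1* lost its call without likely doublets. *Itgb3* also lost its call without dKO XY replicate 2 and without control XY replicate 1.

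**Figure D3:**
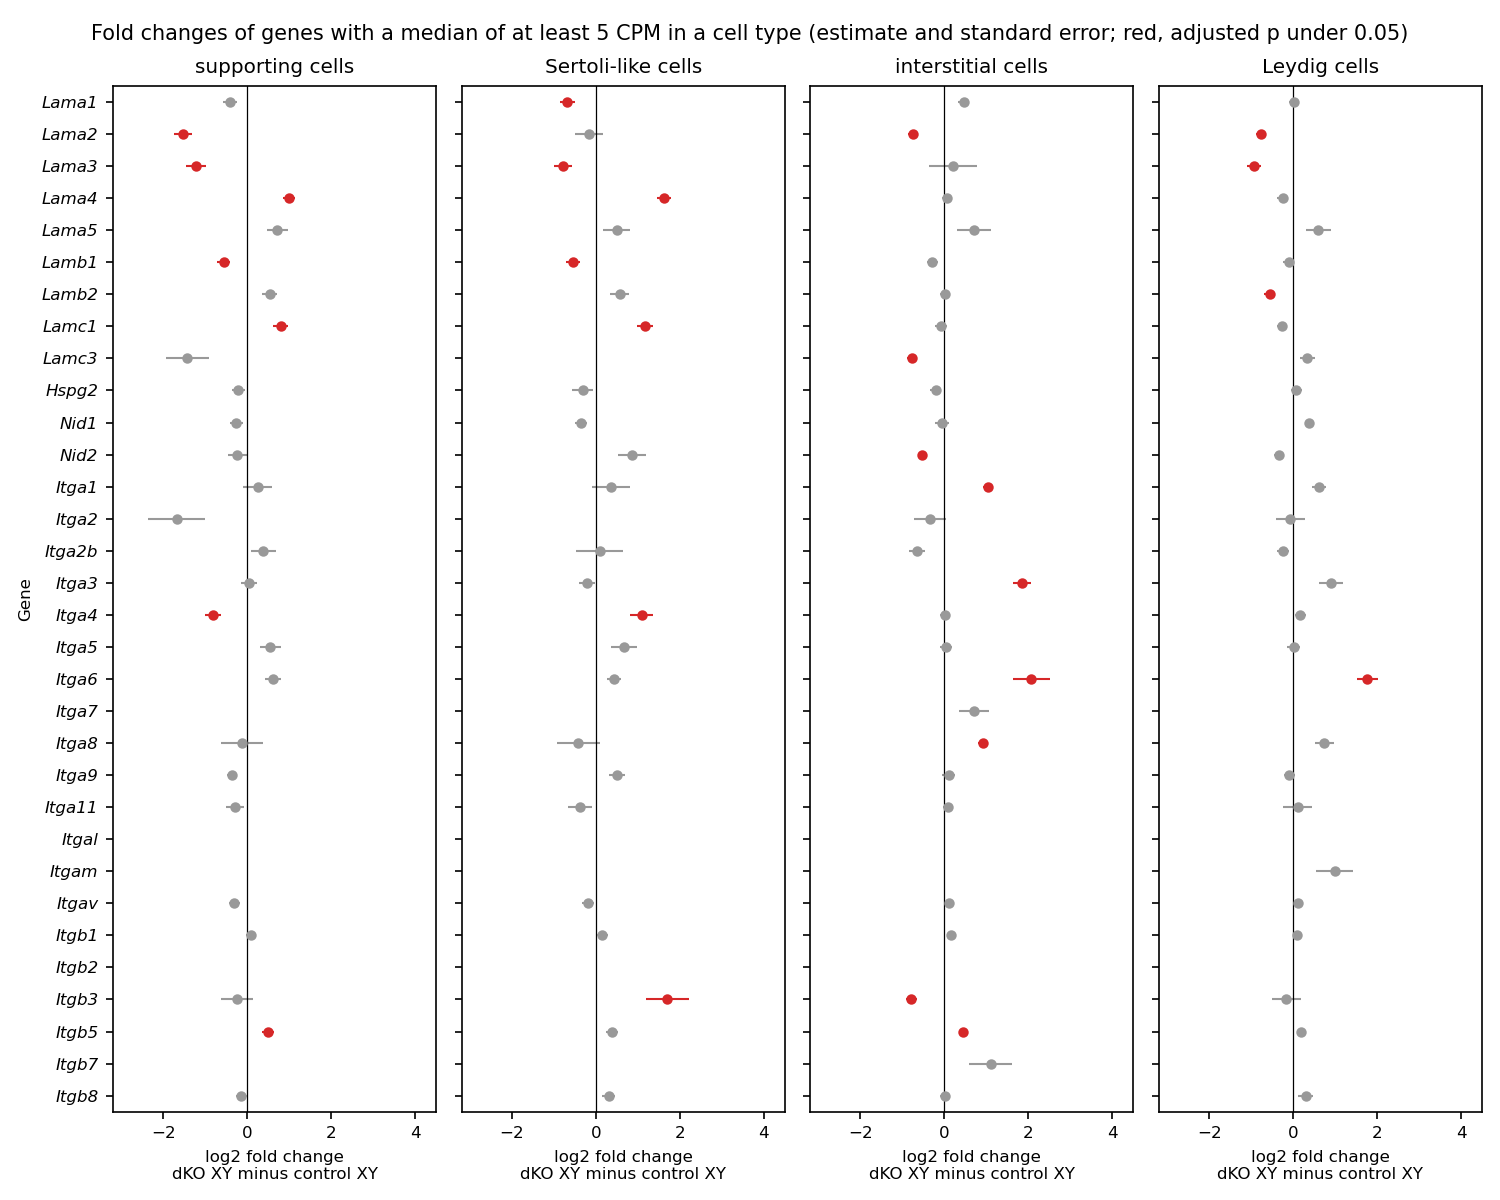
Log2 fold changes between dKO XY and control XY (points, with standard errors as bars) of the 32 genes with a median of at least 5 CPM in a cell type, in 4 cell groups; rows without a point were too low to test, and lower genes such as *Lamb3* are not drawn. Red points passed an adjusted p under 0.05. *Lama4* and *Lamc1* are red to the right in supporting and Sertoli-like cells, and *Itga6* is red to the right in interstitial and Leydig cells.

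Supporting cells of control XX and control XY gonads were compared as a reference for these changes. *Lama4*, *Nid1*, *Nid2*, *Itgb8* and *Itga4* were lower in XX cells, and *Lamc1*, *Lamb2*, *Lama5*, *Itga5* and *Itga2b* were higher. Interstitial markers, whose values in these sums are given above, also summed to less in XX, and epithelial markers were at 211 and 244 CPM in XX against 56.4 and 46.8 CPM in control XY. The part of either in these differences was not tested. *Lama5* lost its call without control XY replicate 1 and without control XX replicate 1. Higher levels in XX were called for 7 of 33 genes tested and lower levels for 15, beside 25.1% and 23.8% of all genes tested (edgeR, Benjamini-Hochberg).

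*Itga4* was at 21.5 and 21.01 CPM in control XY, against 0.39 and 0.57 CPM in control XX supporting cells (log2 fold change -5.62 ± 0.25 (SE), adjusted p of 1.3e-07, edgeR, Benjamini-Hochberg). *Itgb8*, a chain that pairs with *Itgav* and binds latent TGF-beta, was at 22.0 and 23.6 CPM in control XY, against 4.81 and 5.20 CPM in control XX, and *Nid1* at 73.6 and 93.6 CPM against 36.3 and 28.8 CPM. *Nid2* was at 16.6 and 16.8 CPM against 4.68 and 5.97 CPM. *Itgad* was at 1.96 and 1.86 CPM in control XY. No UMI of it was found in 115503492 UMIs of control XX, which is at least 73.1-fold lower when a count of 0 over the group is set to 3 UMIs. *Lamb3* rested on 1 UMI in control XY and 214 in control XX (ratio of 43.9, 95% interval of 7.80 to 1743, counting error only).

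Supporting cells of dKO XY had higher levels than those of control XX for 13 genes and lower levels for 5, beside 21.3% and 19.7% of all genes tested (edgeR, Benjamini-Hochberg). This comparison shares its libraries with the other 2. The log2 fold change was 4.79 ± 0.25 (SE) for *Itga4* and 3.09 ± 0.15 (SE) for *Lama4*. *Nid1*, *Nid2* and *Itgb8* were higher in dKO XY than in control XX by 1.16, 1.48 and 2.10 on the log2 scale, and *Lamc1*, *Lamb1* and *Lamb2* did not pass the test. The interstitial markers summed to 394 and 345 CPM in dKO XY against 152 and 235 CPM in control XX, and the epithelial markers to 90.3 and 56.9 CPM against 211 and 244 CPM, and their part was not tested. *Lama1* was lower in dKO XY (log2 fold change -0.74, adjusted p of 0.0040, edgeR, Benjamini-Hochberg), from 50.4 and 41.8 CPM in control XX to 24.7 and 28.3 CPM.

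In interstitial cells, 4 integrin alpha chains rose and 2 laminin chains fell between dKO XY and control XY. *Itga1*, *Itga6* and *Itga8* rose in dKO XY, as did *Itga3* at a low level and *Itgb5*. *Lama2*, *Lamc3*, *Nid2* and *Itgb3* fell. Of 34 genes tested, 5 were higher and 4 were lower, beside 4.04% and 2.69% of all 16897 genes tested (edgeR, Benjamini-Hochberg). All 4 of the calls among alpha chains were higher, and both calls among laminin chains were lower.

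*Itga6* was at 8.42 and 16.4 CPM in control XY, at 39.8 and 64.7 CPM in dKO XY and at 28.2 and 11.1 CPM in control XX interstitial cells. The dKO XY libraries were above all others, and the log2 fold change was 2.06 ± 0.44 (SE), with an adjusted p of 0.032 (edgeR, Benjamini-Hochberg). Since *Itga6* was many times higher in supporting cells, the markers of these were read in the same sums. The 10 Sertoli markers summed to 89.8 and 153 CPM in control XY and to 138 and 142 CPM in dKO XY, with overlap, and the 9 granulosa markers to 349 and 374 CPM against 387 and 443 CPM. The 7 supporting lineage markers were at 214 and 236 CPM against 293 and 307 CPM, and the 7 erythroid markers at 18.3 and 35.02 CPM against 222 and 329 CPM. The 7 epithelial markers were at 3.33 and 5.19 CPM against 9.74 and 9.10 CPM, and the 7 germ cell markers at 6.56 and 6.58 CPM against 29.96 and 39.1 CPM. No marker of these 6 lists was at 0 in all libraries, and the part of other cells or free RNA in the *Itga6* value was not tested.

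*Itga1*, a collagen receptor chain, was at 7.48 and 7.99 CPM in control XY, at 15.3 and 16.5 CPM in dKO XY and at 19.7 and 16.6 CPM in control XX (log2 fold change between dKO XY and control XY 1.03 ± 0.10 (SE), adjusted p of 0.0029, edgeR, Benjamini-Hochberg). *Itga8*, the receptor chain of nephronectin, was at 10.8 and 10.0 CPM in control XY, at 18.7 and 20.7 CPM in dKO XY and at 41.3 and 45.2 CPM in control XX (0.92 ± 0.11 (SE), adjusted p of 0.0056, edgeR, Benjamini-Hochberg). For both genes the dKO XY libraries lay away from control XY on the side of control XX. *Itga3* rose from 1.11 and 1.38 CPM to 4.29 and 4.72 CPM, and *Itgb5* from 77.4 and 79.4 CPM to 97.4 and 117 CPM. The median of *Itga3* was 41.7 CPM in epithelial and 12.1 CPM in supporting cells. Markers of both in the interstitial sums are given above, and their part in the rise of *Itga3* was not tested.

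*Lama2* fell from 65.2 and 70.9 CPM in control XY to 38.2 and 43.1 CPM in dKO XY, beside 27.7 and 20.98 CPM in control XX, by 0.75 ± 0.12 (SE) on the log2 scale (adjusted p of 0.011, edgeR, Benjamini-Hochberg). *Lamc3*, a gamma chain of restricted expression, was at 17.8 and 18.2 CPM, 10.8 and 10.4 CPM, and 0.92 and 0.65 CPM in the same order. *Nid2* was at 71.5 and 69.9 CPM in control XY, at 46.3 and 52.0 CPM in dKO XY and at 52.8 and 44.8 CPM in control XX. *Itgb3* fell from 7.19 and 7.23 CPM to 4.15 and 4.21 CPM. The 8 interstitial markers themselves summed to 3911 and 3639 CPM in control XY and to 2650 and 2698 CPM in dKO XY. Their part in these falls was not tested. *Lama1*, *Lama4*, *Lama5*, *Lamb1*, *Lamc1*, *Nid1*, *Hspg2* and *Itgb1* did not pass the test. Of these, *Lamb1* was at 215 and 229 CPM against 163 and 202 CPM, and *Lama1* at 15.2 and 16.5 CPM against 21.1 and 22.4 CPM (adjusted p of 0.089 by edgeR with Benjamini-Hochberg adjustment). *Lama1* was called higher with DESeq2, without a filter on low counts and with only the compared groups.

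The interstitial cells formed 3 clusters in unequal shares. A cluster led by *Il33* and *Gdf10*, in which *Itga8* was itself among the leading genes, held 4.97% and 3.67% of control XY, 13.7% and 10.8% of dKO XY and 99.4% and 99.9% of control XX interstitial cells. Within the largest control XY cluster alone, led by *Sostdc1* and *Msc*, the same 9 genes were called. Without control XY replicate 1, 3 genes were called and *Itga6*, *Itgb3*, *Itgb5*, *Lama2*, *Lamc3* and *Nid2* lost their call, and without control XY replicate 2, 4 genes were called. Without dKO XY replicate 2, *Itga6*, *Itgb3* and *Itgb5* lost it, and without dKO XY replicate 1, *Nid2* did. The highest adjusted p in these fits was 0.14 for *Itga6*, 0.074 for *Lama2*, 0.076 for *Lamc3* and 0.16 for *Nid2* (edgeR, Benjamini-Hochberg). *Itgb5* also lost its call when all variable genes were used for clustering and without likely doublets.

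Control XX interstitial cells differed from control XY by 4 higher and 8 lower genes of 34 tested, beside 12.0% and 12.8% of all genes tested (edgeR, Benjamini-Hochberg). *Itga4* was at 114 and 120 CPM in control XY, at 103 and 135 CPM in dKO XY and at 2.24 and 1.94 CPM in control XX, a log2 fold change of -5.76 ± 0.16 (SE) between the controls. Between dKO XY and control XY its log2 fold change was 0.01 ± 0.12 (SE), which did not pass the test. *Itgb8*, *Itga9* and *Lamb1* were also lower in control XX. *Itga8*, *Itga1*, *Itga11* and *Itgav* were higher in control XX. In these sums the Leydig markers were at 110 and 123 CPM in control XY against 5.28 and 3.52 CPM in control XX, the granulosa markers at 349 and 374 CPM against 818 and 582 CPM, and the interstitial markers themselves at 3911 and 3639 CPM against 2351 and 2754 CPM. Their part in these differences was not tested.

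**Figure D4:**
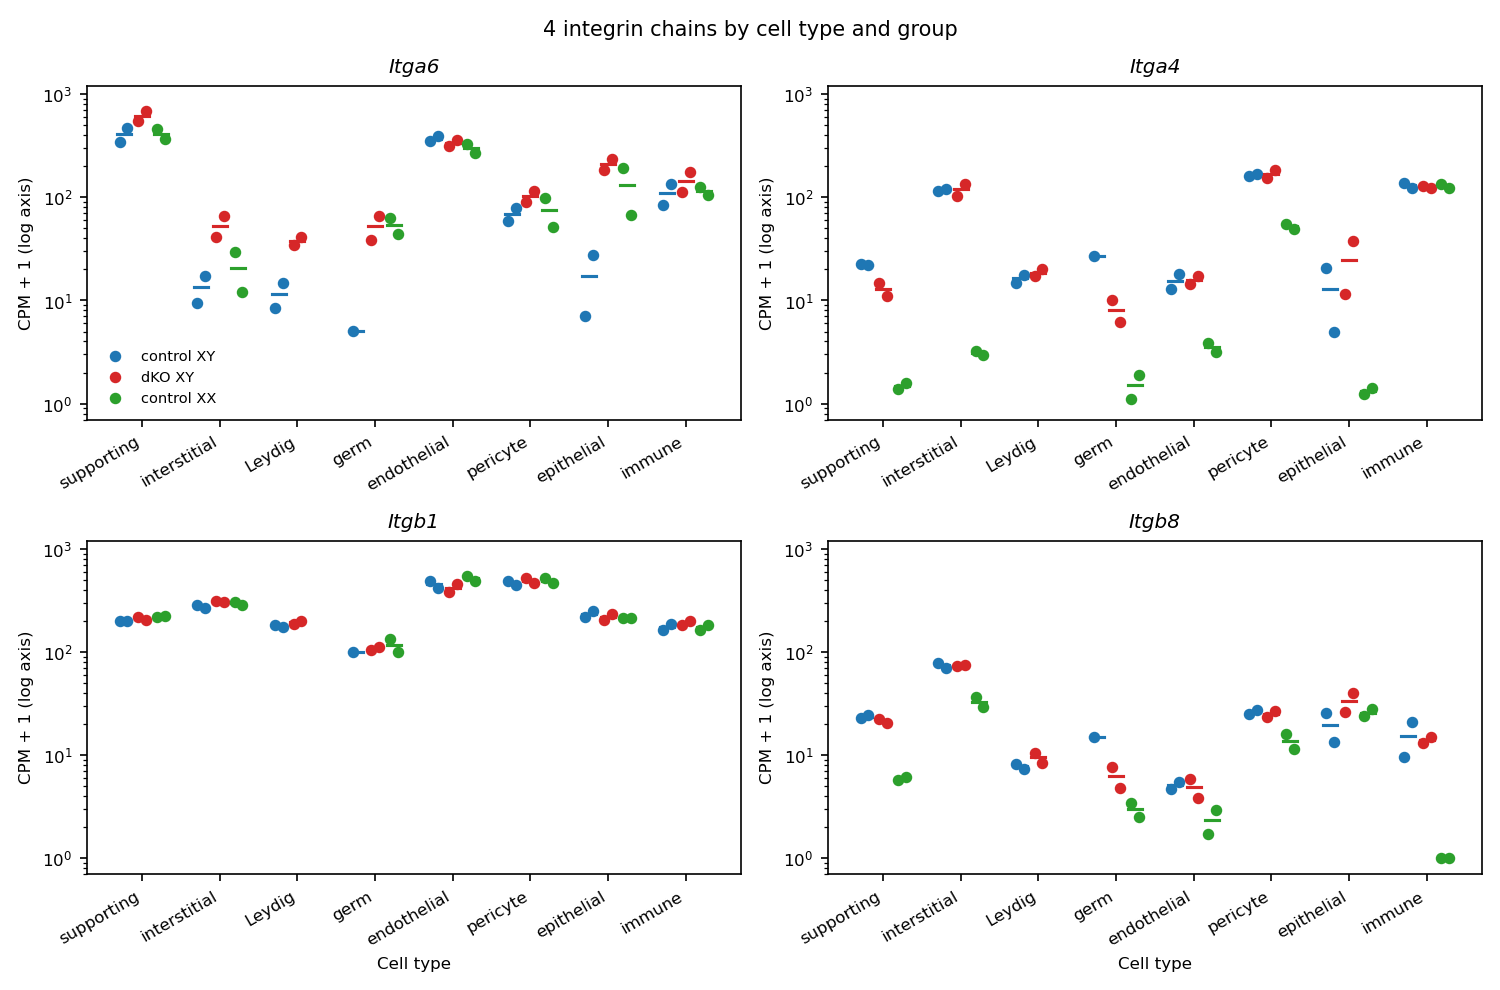
Levels of *Itga6*, *Itga4*, *Itgb1* and *Itgb8* as CPM + 1 (log axis) in 8 cell types, with 1 point per library and a bar at the group mean; control XY germ cells have 1 library with at least 10 cells. Control XX points of *Itga4* lie below all XY points in each type that has them except immune cells, and the *Itgb1* points lie between 98.9 and 541 CPM.

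The change between dKO XY and control XY was compared between supporting and interstitial cells of the same libraries. It differed for 13 of 36 genes, with 3 more positive and 10 more negative in supporting cells, beside 8.12% and 11.5% of all genes tested (edgeR, Benjamini-Hochberg). *Lama4*, *Lamc1* and *Lamb2* were the 3, and *Itga3*, *Itga6*, *Lama1*, *Itga8* and *Lama3* were among the 10. The difference of log2 fold changes was 0.89 ± 0.12 (SE) for *Lama4*, 0.83 ± 0.12 (SE) for *Lamc1* and -0.92 ± 0.13 (SE) for *Lama1*, with adjusted p of 6.6e-04, 0.0012 and 8.4e-04 (edgeR, Benjamini-Hochberg). It was -1.53 ± 0.16 (SE) for *Itga6*, with an adjusted p of 1.8e-04 (edgeR, Benjamini-Hochberg). *Lamb1* lost its call without a filter on low counts. Without control XY replicate 1, 8 genes were called, and *Itga4*, *Itga9*, *Lama2*, *Lama3* and *Lamb2* lost their call. *Itga4*, *Itga8*, *Itga9*, *Lama2* and *Lamb1* lost it without control XY replicate 2 and without likely doublets, as did *Itgav* in the first and *Lamb2* in the second of these. *Lama3* and *Lamb1* lost it without dKO XY replicate 1, and *Itga9*, *Lamb1* and *Lamb2* without dKO XY replicate 2.

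Leydig cells, the steroid-producing cells of the testis, were present in XY gonads alone. *Itga6* rose and *Lama2*, *Lama3* and *Lamb2* fell in dKO XY, 1 and 3 of 31 genes tested, beside 5.06% and 2.88% of all 14670 genes tested (edgeR, Benjamini-Hochberg). *Itga6* was at 7.37 and 13.8 CPM in control XY, against 33.5 and 40.6 CPM in dKO XY, for a log2 fold change of 1.77 ± 0.24 (SE) and an adjusted p of 0.0071 (edgeR, Benjamini-Hochberg). In the same cells the Sertoli markers summed to 101 and 174 CPM in control XY and to 207 and 206 CPM in dKO XY, and the granulosa markers to 199 and 213 CPM against 375 and 451 CPM, and their part in the *Itga6* value was not tested. The Leydig markers themselves summed to 31410 and 30030 CPM in control XY and to 21780 and 21640 CPM in dKO XY, the erythroid markers to 14.2 and 25.4 CPM against 197 and 119 CPM, and the germ cell markers to 18.02 and 17.3 CPM against 36.4 and 46.4 CPM, and their part in the 4 calls was not tested.

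*Lama2* was at 18.4 and 18.1 CPM in control XY Leydig cells and at 10.3 and 11.4 CPM in dKO XY, and *Lama3* at 8.72 and 7.54 CPM against 4.74 and 3.92 CPM. *Lama2* fell by 0.77 ± 0.11 (SE) and *Lama3* by 0.94 ± 0.17 (SE) on the log2 scale, with adjusted p of 0.0081 and 0.016 (edgeR, Benjamini-Hochberg). *Lamb2*, a beta chain of mature basement membranes, was at 34.8 and 37.3 CPM against 21.1 and 28.9 CPM. All 4 calls were kept in each fit that left out 1 library, and *Lamb2* lost its call when all variable genes were used for clustering (adjusted p of 0.079 by edgeR with Benjamini-Hochberg adjustment). *Nid1* was at 60.4 and 64.5 CPM against 75.1 and 90.5 CPM without overlap (log2 fold change 0.38, adjusted p of 0.066, edgeR, Benjamini-Hochberg) and was called with DESeq2, without a filter on low counts, without likely doublets and without dKO XY replicate 1, and *Lama1*, *Lama5*, *Lamb1*, *Lamc1*, *Nid2*, *Hspg2* and *Itgb1* did not pass the test either.

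In endothelial cells, *Itgav* fell from 47.3 and 42.3 CPM in control XY to 20.3 and 22.6 CPM in dKO XY, beside 15.2 and 14.7 CPM in control XX, and *Lamc3* from 16.1 and 19.7 CPM to 4.63 and 3.03 CPM, beside 3.87 and 1.18 CPM. These were the 2 genes called of 26 tested, both lower, where 0.224% of all 12052 genes tested were called higher and 0.299% lower (edgeR, Benjamini-Hochberg). The log2 fold change was -1.05 ± 0.15 (SE) for *Itgav* and -2.16 ± 0.35 (SE) for *Lamc3*, with adjusted p of 0.013 and 0.018 (edgeR, Benjamini-Hochberg). Between control XX and control XY endothelial cells, 6 genes were lower and none higher, beside 3.04% lower and 1.63% higher of all genes tested, with *Lamc3* (-2.67) and *Itga4* (-2.47) the largest on the log2 scale. The control XY libraries held 97 and 144 endothelial cells, and without control XY replicate 1 *Itgav* lost its call between dKO XY and control XY, while without control XY replicate 2 both *Itgav* and *Lamc3* did, leaving 1 and 0 genes. Without control XY replicate 2, 3 genes were called between the controls. Interstitial markers in endothelial cells summed to 379 and 481 CPM in control XY, at 313 and 338 CPM in dKO XY and at 211 and 267 CPM in control XX, with none of the 8 at 0. The Leydig markers there were at 343 and 369 CPM in control XY, 389 and 810 CPM in dKO XY and 3.99 and 3.33 CPM in control XX, and the granulosa markers at 71.7 and 91.02 CPM, 128 and 168 CPM, and 224 and 178 CPM in that order. The erythroid markers were at 16.6 and 33.1 CPM in control XY against 505.5 and 360 CPM in dKO XY endothelial cells. The germ cell markers were at 5.62 and 3.31 CPM against 22.15 and 42.95 CPM. The part of all these cells in the values was not tested.

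The vessel-associated pericytes gave no call between dKO XY and control XY by edgeR with Benjamini-Hochberg adjustment, with 7 of 27 genes at an unadjusted p under 0.05 and none called by DESeq2, where 0.158% of all genes tested were higher and 0.116% lower. *Itga1* in pericytes was at 484 and 526 CPM in control XY, at 353 and 471 CPM in dKO XY and at 614 and 404 CPM in control XX. Between control XX and control XY pericytes, 8 genes were lower and none higher, beside 5.16% and 3.11% of all genes tested. *Lamc3* was at 6.43 and 7.04 CPM in control XY pericytes and no UMI was found in control XX, which is at least 8.96-fold lower with the floor of 3 UMIs over the group. Without control XX replicate 2, 4 genes were called, and *Itga10*, *Itga11*, *Itgb3* and *Itgb8* lost their call. *Lama2* was at 45.2 and 45.6 CPM against 12.6 and 5.78 CPM, and *Itga4* at 160 and 167 CPM against 54.5 and 48.8 CPM. In the same pericyte sums the interstitial markers were at 1192 and 1218 CPM in control XY against 764 and 782 CPM in control XX, and the Leydig markers at 136 and 130 CPM against 4.20 and 2.17 CPM, and their part in these values was not tested.

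Immune cells gave no call among 27 genes by edgeR with Benjamini-Hochberg adjustment, with 7 at an unadjusted p under 0.05 and 1 called by DESeq2 (*Itgb2*), where 0.00867% of all genes tested were higher and 0% lower. The leukocyte chain *Itgb2* was at 100 and 75.6 CPM in control XY, against 41.5 and 40.2 CPM in dKO XY, and *Itgal*, chosen like it after the values were seen, at 65.9 and 52.3 CPM against 33.5 and 37.9 CPM, without overlap. *Itga4* in immune cells lay between 122 and 138 CPM in all 6 libraries, control XX included. The cluster of immune cells also passed for 7 of 7 erythroid markers. These summed to 3209 and 7275 CPM in control XY, 12150 and 9280 CPM in dKO XY and 46280 and 12950 CPM in control XX. The immune markers were at 12070 and 9960 CPM, 9648 and 9683 CPM, and 8609 and 10450 CPM in that order. The part of erythroid cells or RNA in the values of *Itgb2*, *Itgal* and *Itga4* was not tested.

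Germ cells were compared between dKO XY and control XX, since the control XY libraries held 15 and 7 of them. Higher levels in dKO XY were called for 12 of 28 genes tested and lower levels for 3, beside 24.7% and 24.5% of all 14650 genes tested (edgeR, Benjamini-Hochberg). DESeq2 called 10 genes, without *Itgb8*, *Lama2*, *Lama4*, *Lamc1* and *Nid1*. The 3 lower genes were *Itga2b*, the alpha chain of the platelet fibrinogen receptor, at 2.07 and 1.29 CPM against 11.7 and 26.1 CPM in control XX, *Lamb2*, at 5.88 and 9.51 CPM against 48.0 and 39.1 CPM, and *Itgae*, at 4.78 and 4.16 CPM against 13.2 and 15.6 CPM. *Itgb3* was higher, at 10.7 and 16.1 CPM against 3.91 and 1.03 CPM, and *Nid2* was at 30.4 and 40.03 CPM against 17.3 and 7.71 CPM.

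*Lamc3* was at 1.36 and 0.40 CPM in dKO XY germ cells, on 21 and 4 UMIs, and no UMI was found in control XX. Its call was lost without dKO XY replicate 1, without control XY replicate 1 and with only the compared groups. Markers of somatic cells differed between these germ cells. The 10 Sertoli markers summed to 161 and 208 CPM in dKO XY and 51.6 and 40.2 CPM in control XX, the 8 interstitial markers to 239 and 183 CPM against 130 and 117 CPM, and the 6 Leydig markers to 373 and 214 CPM against 8.75 and 8.22 CPM, with no marker of these at 0 in all libraries. The 9 granulosa markers went the other way, at 139 and 211 CPM in dKO XY and 267 and 248 CPM in control XX. *Itga4*, higher in dKO XY by 3.997 ± 0.50 (SE) on the log2 scale, was also higher in XY than XX interstitial cells, and the part of somatic RNA in these values was not tested.

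The same comparison of dKO XY with control XY was read in 4 further lists of the adhesion system. Among 18 other basement membrane genes, 6 were higher and 2 lower in supporting cells, 3 and 1 in interstitial cells and 3 and 1 in Leydig cells (edgeR, Benjamini-Hochberg). The shares of all genes tested that were higher and lower, against which these counts and those of the other 3 lists are to be read, were 9.86% and 6.81% in supporting, 4.04% and 2.69% in interstitial and 5.06% and 2.88% in Leydig cells. *Smoc1*, a secreted matrix protein, rose from 27.2 and 29.8 CPM to 84.3 and 91.5 CPM in supporting cells (log2 fold change 1.63 ± 0.14 (SE)). The granulosa markers in the supporting sums were at 912 and 880 CPM in control XY, 2334 and 2829 CPM in dKO XY and 4689 and 4270 CPM in control XX, and their part in this rise and in those of *Mfge8* and *Parvb* was not tested. *Col18a1* rose in interstitial cells from 20.1 and 27.2 CPM to 56.4 and 68.6 CPM, and *Col4a1*, a chain of the type IV collagen network, rose in Leydig cells from 178 and 201 CPM to 282 and 327 CPM. *Egflam*, a ligand of dystroglycan, fell in interstitial cells from 88.7 and 92.3 CPM to 62.7 and 66.5 CPM and in Leydig cells from 17.8 and 17.7 CPM to 13.4 and 13.0 CPM.

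Of 13 other integrin ligands tested, 2 were higher and 4 lower in supporting cells, beside 9.86% and 6.81% of all genes. *Mfge8*, a ligand of integrins with *Itgav*, rose in supporting cells from 101 and 111 CPM to 257 and 245 CPM (log2 fold change 1.26 ± 0.12 (SE)), and also in interstitial cells (0.96 ± 0.10 (SE)) and Leydig cells (0.44 ± 0.09 (SE)). *Fbn1* fell in supporting cells from 76.4 and 80.5 CPM to 38.1 and 33.1 CPM, where the interstitial markers summed to 646 and 699 CPM against 394 and 345 CPM, and their part was not tested. Interstitial cells had 2 higher and 1 lower and Leydig cells, where 12 were tested, 3 higher and 1 lower of these genes (edgeR, Benjamini-Hochberg).

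Of 7 other laminin receptors tested, none passed the test in supporting cells, where none had an unadjusted p under 0.05 either, while 3 were higher and 1 lower in interstitial cells, beside 4.04% and 2.69% of all genes, and 1 was higher in Leydig cells, beside 5.06% (edgeR, Benjamini-Hochberg). In interstitial cells *Sdc4* rose from 18.0 and 20.9 CPM to 28.8 and 28.1 CPM and *Sdc1* fell from 108 and 105 CPM to 67.8 and 75.3 CPM, both syndecans. The interstitial markers in these sums were at 3911 and 3639 CPM in control XY against 2650 and 2698 CPM in dKO XY. Their part in the falls of *Sdc1* and *Egflam* in interstitial cells was not tested. Among 18 integrin adaptors and kinases tested in supporting cells and 17 in interstitial and in Leydig cells, 3 were higher and 1 lower in supporting cells, beside 9.86% and 6.81% of all genes, and 1 was higher in each of interstitial and Leydig cells, beside 4.04% and 5.06%. *Parvb*, an adaptor at the cytoplasmic face of integrins, rose in supporting cells from 1.60 and 1.03 CPM in control XY to 17.5 and 25.4 CPM in dKO XY, beside 47.8 and 51.8 CPM in control XX (log2 fold change 4.12 ± 0.29 (SE)). *Tns1*, a focal adhesion protein, fell from 53.5 and 63.1 CPM to 31.5 and 33.8 CPM, beside 16.8 and 13.3 CPM in control XX, and like *Fbn1* moved with the interstitial markers in these cells.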

How the data were processed

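Gonads of mouse embryos at E15.5 were studied by single cell mRNA sequencing, with 2 libraries for each of 3 groups. Per gene symbol and barcode, the authors deposited UMI counts, made with Cell Ranger and a correction for barcode swapping against mm10, without normalization. Their notes also name Seurat 4.0. Barcodes were kept between 2500 and 9000 genes, under 25% mitochondrial and under 20% *Hbb* UMIs. Clustering used Seurat 5.3.0 in R 4.3.3, with log normalization to 10000, 3000 variable genes of which 44 (13 laminin and integrin genes, the other adhesion genes and the deleted genes) were left out, 20 dimensions and a resolution of 0.21, which gave 12 clusters. A second clustering took supporting cells with *Sycp3* and *Tcf21* under a level of 1. It used the first 8 dimensions computed from all cells, at a resolution of 0.25, and gave 5 subclusters. The study instead normalised and scaled its supporting cells anew and computed new dimensions. Subclusters could be named by the Sertoli and granulosa lists, or by the germ cell list where it led, which it did in none. A name needed at least 3 markers of a class with a UMI in 10% of the cells and a level 1.5 times that of other cells, so names were rebuilt here and may differ from those of the study. Scrublet in scanpy 1.11.5 marked 0 to 71 cells per library by its automatic threshold, so doublets were kept, and the 8% of cells with the highest scores were left out as an alternative.

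Counts were summed per library and cell type over at least 10 cells and tested across libraries with edgeR 4.0.16 (filterByExpr, TMM, glmQLFit, glmQLFTest), with Benjamini-Hochberg adjustment over all genes tested and a threshold of 0.05. All groups shared the estimate of the spread, and Leydig cells were fitted without control XX. Library was taken as a block where supporting and interstitial cells were compared. An exact permutation test of 2 against 2 libraries cannot go below a p of 0.333, so none was used. The study states that the libraries of a genotype are biological replicates. The chi-square over degrees of freedom between the libraries of a group was 12.4 to 53.2, so none were the same library. Intervals are exact at 95% and, like the floor of 3 UMIs for a count of 0, cover counting error only. The test was also run on simulated counts as a self-check, which is not used as support for any result here.

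Alternatives were DESeq2 1.42.0, no filter on low counts, only the compared groups, the replicate number as a block, all variable genes, no likely doublets, the largest control XY interstitial cluster alone, and each library left out. Values are given per library for every gene called between dKO XY and control XY with a mean of at least 5 CPM in supporting, Sertoli-like, interstitial or Leydig cells. In supporting cells they are also given for *Lama1*, *Lama5*, *Lamb1*, *Lamc1*, *Nid1*, *Nid2*, *Hspg2*, *Itga6* and *Itgb1*, and elsewhere for some of these. Of the other adhesion lists, the largest called rise and fall above 10 CPM are named. Other genes named were chosen after their values were seen. The genes and lists were chosen with earlier results of these data known. Coordinates are from GENCODE M21 and promoters from RefSeq, both for GRCm38. Protein sequences, the microarray and the imaging of the study were not analysed here, and 1 gene is not reported here by name.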

Additional observations from a re-analysis of the deposited data

Results flagged for a closer look

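The change between dKO XY and control XY differed between supporting and interstitial cells for 13 genes of 36 tested, by the interaction term in edgeR (Benjamini-Hochberg adjustment). It was more positive in supporting cells for 3 and more negative for 10, beside 8.12% and 11.5% of all genes tested. The values below are the log2 fold change in supporting cells minus that in interstitial cells of the same libraries. It was positive for *Lama4* (0.89), *Lamc1* (0.83) and *Lamb2* (0.48). Among the laminin alpha and beta chains it was negative for *Lama3* (-1.47), *Lama1* (-0.92), *Lama2* (-0.82) and *Lamb1* (-0.32). Among the integrin alpha chains it was negative for *Itga3* (-1.84), *Itga6* (-1.53), *Itga8* (-1.11), *Itga4* (-0.87), *Itga9* (-0.50) and *Itgav* (-0.47). The part of interstitial RNA in the supporting sums, and of other cells in the interstitial sums, was not tested for these values. *Itga4*, *Itga8*, *Itga9*, *Itgav*, *Lama2*, *Lama3*, *Lamb1* and *Lamb2* lost their call in 1 or more of the alternative fits. Groups of 2 libraries are too small for a test of single outlying libraries.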

How the results depend on the processing

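Of the counts of genes called, 139 stayed within 1.5 times and 20 moved, and of the log2 fold changes of single genes 501 kept direction and side of the threshold, 40 lost and 24 gained a call and 13 turned. Without a filter on low counts, the count went from 8 to 13 in supporting, 4 to 7 in Leydig, 0 to 3 in pericytes and 0 to 4 in immune cells between dKO XY and control XY, and from 6 to 10 in endothelial cells between the controls. DESeq2 called 5 in pericytes between the controls and 1 in immune cells. In Leydig cells, 7 were called with the replicate block (*Itga1*, *Itga3* and *Nid1* gained) and 7 without likely doublets (*Itgb8*, *Lamc3* and *Nid1* gained). Leaving out 1 library gave 4 to 10 in supporting, 4 to 8 in Sertoli-like, 3 to 10 in interstitial and 0 to 2 in endothelial cells between dKO XY and control XY, 3 to 9 in endothelial cells and 4 to 9 in pericytes between the controls, and 8 to 15 for the interaction. The cause was not tested. The turned fold changes were of genes that did not pass the test: without likely doublets *Hspg2* in supporting cells was at 0.058 and *Lamb1* in Leydig cells at 0.016, with all variable genes *Hspg2* and *Lama1* in Leydig cells were at -0.010 and -0.036, and leaving out 1 library gave -0.60 to 0.049 for *Nid2* in supporting cells, -0.72 to 0.017 for *Hspg2* in Sertoli-like cells, -0.21 to 0.035 for *Lamc1* and -0.17 to 0.047 for *Nid1* in interstitial cells, and -0.11 to 0.23 for *Hspg2*, -0.13 to 0.14 for *Lama1* and -0.32 to 0.078 for *Lamb1* in Leydig cells. The deviations of same-numbered libraries in supporting cells had correlations of -0.005, -0.19 and -0.092. No pairing by number was seen there, but 2 libraries per group cannot exclude one. Between dKO XY and control XY, the replicate block gave 8 in supporting cells (*Itgb5* lost, *Lamc3* gained). It gave 10 in Sertoli-like cells (*Lama3* lost, *Itga6*, *Itga9*, *Itgb5* and *Lamb2* gained) and 6 in interstitial cells (*Itga6*, *Itgb5* and *Nid2* lost). A crossed block, added after seeing the data, gave 21 in supporting cells between dKO XY and control XX, beside 18 (*Itgav*, *Lamb1* and *Lamb2* gained). The largest control XY interstitial cluster could not be fitted between the controls, since control XX held 2 and 2 of its cells. The 259 and 528 supporting cells of control XY limit the depth of genes under 1 CPM.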
